A study of Mus musculus with 12 samples.

Results

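T cell development begins when progenitors made in the bone marrow enter the thymus, and the comparison described here sets the last marrow stage of that path in the series beside the first thymic stage. It uses 2 of the 12 small RNA libraries, 1 per population, both from C57BL/6 mice but from different tissues. LMPP (lymphoid-primed multipotent progenitors) were sorted from bone marrow as lineage-negative, Sca+ and cKit+ cells that carried CD135 (the receptor Flt3) and lacked CD106 (the adhesion molecule Vcam1). DN1, the earliest CD4- CD8- thymocytes, were sorted from thymus as CD3- CD90+ CD44+ CD25- cells, with no Kit gate in the label. No age, sex, pooling or number of mice is stated for either library. The rule takes every miRNA name in the mature tables of these libraries, which gave 449 names: 366 in both tables, 39 in LMPP only and 44 in DN1 only.

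MicroRNAs are short RNAs that guide Argonaute proteins to messenger RNAs and lower their translation and stability. A target is recognised mainly through the seed, bases 2 to 8 of the miRNA, so miRNAs with the same seed share many targets. The precursor is a hairpin with 2 arms, and either arm may give a mature miRNA; the names used here mark the arm that was thought to be the minor product with a star.

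LMPP had 979219 mature reads and DN1 had 3754351, so that DN1 was 3.83 times deeper. Levels are reads per 1000000 mature reads (RPM), and 3 reads stand for 3.06 RPM in LMPP and 0.799 RPM in DN1. Both libraries began at the same place by the deposited position, with 97.7% of the mature reads of LMPP and 97.4% of those of DN1 starting at base 3, and their mean read lengths were 20.16 and 20.02 nt. A name was tested where it reached 100 RPM and 10 reads in at least 1 of the libraries. It is called higher or lower where the whole 95% interval of the DN1 to LMPP ratio (exact conditional binomial, Clopper-Pearson) lay beyond 2-fold. With 1 library per population no difference has a replicate check and no p-value is given. Intervals stand in parentheses and cover only counting error, not the spread between libraries. PCR reads are not independent molecules, so the intervals may be too narrow even for that. The libraries are of sorted bulk cells, so fewer cells of a type and less RNA per cell cannot be told apart.

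Of 158 names tested, 15 were higher in DN1 (9.49%) and 60 were lower (38.0%), which is 47.5% in either direction, and 83 did not pass the rule. The other 291 names stayed below the level, the highest of them at 99.1 RPM. The median log2 ratio of all tested names was -0.75, and this median depends on how the libraries are scaled. TMM factors moved every log2 ratio up by 0.98 and gave 41 higher and 26 lower names, and median-of-ratios size factors moved them up by 0.83 and gave 35 and 29. All 15 higher names and 26 of the 60 lower names were called under each of these scalings and under a total without the most abundant names, and no name was called in opposite directions. Those 15 and 26 names are the base of the account below, and a name called under the total alone is marked as such. The 26 include miR-2142 and miR-2143, whose group is taken up after the hairpin tables. They also include miR-199a-3p and miR-199b, which have the same mature sequence. The names just inside the rule were miR-32 (2.42-fold higher, lower bound 2.19) and miR-181a (ratio 0.490, upper bound 0.497). Just outside it were miR-7a (2.12-fold, lower bound 1.94) and let-7c (ratio 0.498, upper bound 0.505).

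**Figure D1:**
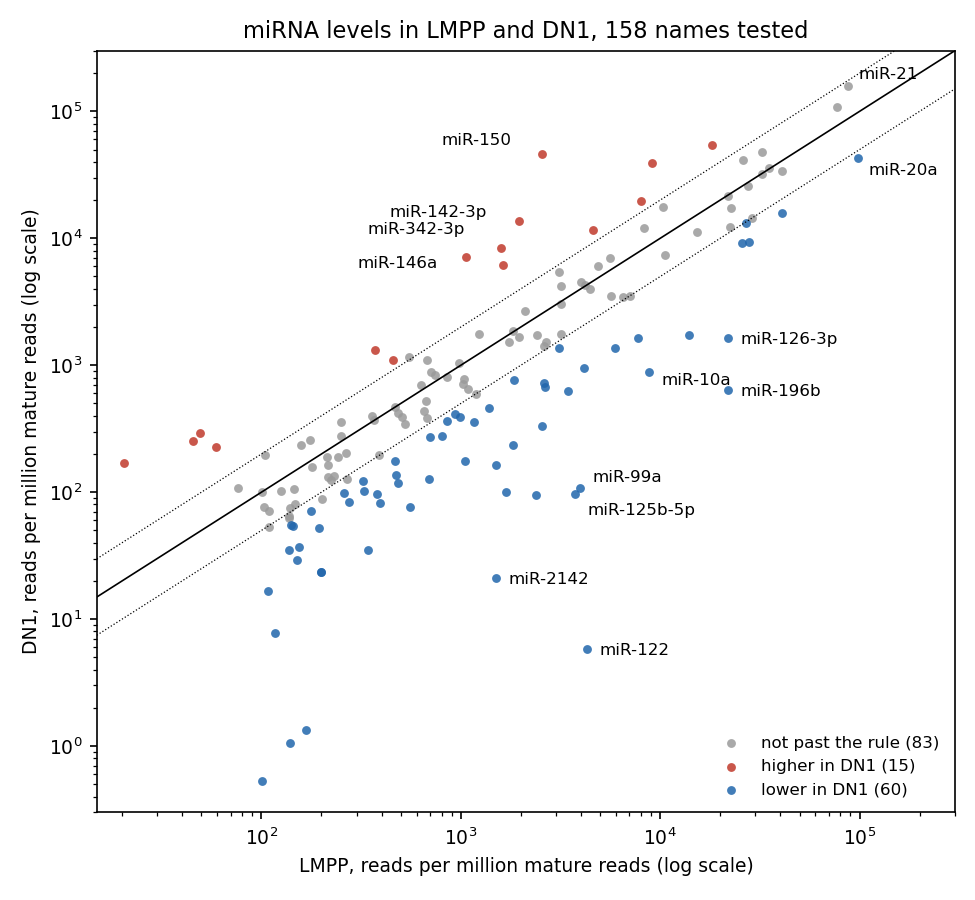
Each point is 1 of the 158 miRNA names tested, by its RPM in LMPP (x axis) and DN1 (y axis), both on log scales; the solid line marks equal levels and the dotted lines a 2-fold difference. By the read total 15 names lie above and 60 below the rule, against 41 and 26 with TMM factors; miR-122, at 4313 and 5.86 RPM, lies farthest below among names over 1000 RPM.

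The mature sequences that carry the main differences are shown first, as RefSeq lists them for the mouse assembly GRCm38.p6, 5′ to 3′, with the seed in capitals. RefSeq entries were matched for 131 of the 158 tested names, and a name with no match is given without a sequence. Most reads in both libraries lack the first 2 bases printed here. The exception is miR-142-5p, with 70.1% of its reads in LMPP and 53.5% in DN1 starting at base 1. Whether its printed seed is that of most of its molecules was not tested. The first set holds abundant names that were lower in DN1 under every scaling. It is shown because, apart from miR-221 and miR-222, each of these names has a seed of its own.
miR-196b: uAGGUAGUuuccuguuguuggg
miR-126-3p: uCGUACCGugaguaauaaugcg
miR-10a: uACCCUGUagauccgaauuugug
miR-99a: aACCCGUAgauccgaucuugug
miR-125b-5p: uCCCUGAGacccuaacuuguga
miR-130a: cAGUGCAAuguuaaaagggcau
miR-221: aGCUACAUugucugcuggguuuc
miR-222: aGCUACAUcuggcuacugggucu

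The second set was higher in DN1 under every scaling, and is shown because the 3 miR-29 names have 1 seed while the other names have seeds of their own.
miR-142-3p: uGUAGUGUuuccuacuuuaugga
miR-142-5p: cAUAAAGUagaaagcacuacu
miR-342-3p: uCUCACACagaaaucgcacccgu
miR-139-5p: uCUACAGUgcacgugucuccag
miR-29a: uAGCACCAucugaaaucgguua
miR-29b: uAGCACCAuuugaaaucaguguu
miR-29c: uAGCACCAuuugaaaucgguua

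The third set holds the 2 seeds whose members were called in opposite directions by the read total, miR-146a and miR-146b on the one hand and miR-25 and miR-32 on the other.
miR-146a: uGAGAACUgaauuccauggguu
miR-146b: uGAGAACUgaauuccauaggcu
miR-25: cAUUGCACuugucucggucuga
miR-32: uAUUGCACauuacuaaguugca

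The miRNAs known from stem and progenitor cells were lower in DN1. Of 14 listed names 13 were tested, and all 13 were lower (background 38.0%), 9 of them under every scaling, with a median log2 ratio of -3.33 against -0.75 for all tested names. Their summed level was 83817 RPM in LMPP and 6621 RPM in DN1. The list was chosen with earlier results of these data known, so its count describes these names and is no test of enrichment. miR-196b, which lies at chr6:52230081-52230165 on the minus strand of GRCm38 within an exon of a Hoxa9 transcript, stood at 21851 RPM in LMPP and 635 RPM in DN1, 34.4-fold lower (32.98 to 35.91). miR-126-3p, from a hairpin at chr2:26591357-26591429 on the plus strand in the endothelial gene Egfl7, is known for its part in stem cell quiescence. It had 21752 RPM in LMPP and 1632 RPM in DN1, 13.3-fold lower (13.0 to 13.7). The opposite arm, miR-126-5p, had 1688 and 99.6 RPM, 16.9-fold lower (15.1 to 19.0).

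miR-125b-5p and miR-99a, which share a host transcript (Mir99ahg) on chromosome 16, had the largest differences of the list. miR-125b-5p, known to expand stem and progenitor cells, had 3756 RPM in LMPP and 97.0 RPM in DN1, 38.7-fold lower (34.8 to 43.3), and it has a further locus on chromosome 9. miR-99a, whose hairpin is at chr16:77598936-77599000, had 3963 RPM in LMPP and 108 RPM in DN1, 36.6-fold lower (33.04 to 40.64). The neighbour of miR-99a, let-7c, had 28973 RPM in LMPP and 14422 RPM in DN1, just outside the rule, but it is also made from a locus on chromosome 15. The related cluster on chromosome 17, in Spaca6, holds miR-99b, let-7e and miR-125a-5p. There miR-125a-5p had 2636 and 675 RPM, 3.90-fold lower (3.69 to 4.13), miR-99b had 485 and 119 RPM, and let-7e had 851 and 365 RPM. All 3 were lower by the read total and none with TMM factors, under which the fold of miR-125a-5p was 1.98. Names of 1 seed thus differed in size of change: miR-125a-5p and miR-125b-5p share the seed CCCUGAG, and miR-99a and miR-99b the seed ACCCGUA.

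miR-130a, known from progenitors and platelets, had 2370 RPM in LMPP and 94.4 RPM in DN1, 25.1-fold lower (22.4 to 28.2). miR-10a, a miRNA of the Hox clusters with its hairpin at chr11:96317165-96317274 on the plus strand, had 8809 and 878 RPM, 10.04-fold lower (9.64 to 10.5). miR-10b, which differs from miR-10a by few bases, had 154 and 37.2 RPM and was called by the read total but not with TMM factors. miR-221 and miR-222, neighbours on the X chromosome that are known to act on the receptor Kit, were both lower. miR-221 had 13923 RPM in LMPP and 1715 RPM in DN1, 8.12-fold lower (7.88 to 8.36), and miR-222 had 1500 and 163 RPM, 9.22-fold lower (8.38 to 10.1). miR-100, the 1 listed name below the level, had 80.2 and 2.80 RPM.

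The X-linked cluster of miR-322, miR-503, miR-351 and miR-450 showed the same direction. Of 9 listed names all 5 that were tested were lower in DN1, 4 of them under every scaling, with a median log2 ratio of -2.87. The listed names summed to 13589 RPM in LMPP and 2578 RPM in DN1. miR-450b-3p, of the same cluster but not listed, had 107 and 16.8 RPM. It was lower by the read total but not with TMM factors or size factors. miR-322, the mouse counterpart of human miR-424 and known to repress the cell cycle gene Cdc25a, had 7753 and 1630 RPM, 4.76-fold lower (4.60 to 4.92). miR-351 had 1829 and 234 RPM, 7.80-fold lower (7.19 to 8.47), and miR-450a-5p had 2559 and 332 RPM, 7.71-fold lower (7.20 to 8.26). miR-503 had 699 and 270 RPM and was lower by the read total but not with TMM factors or size factors. miR-322 has the seed of miR-15 and miR-16, and those names were not lower: miR-16 had 76997 RPM in LMPP and 107217 RPM in DN1, and miR-15a had 8328 and 11939 RPM. Neither passed the rule by the read total. Both were called higher with size factors (ratios of 2.47 and 2.54) and with TMM factors (2.74 and 2.82). miR-497, also of that seed, had 140 and 55.1 RPM and was lower by the read total. The sum over that seed was 1.24 times the LMPP level in DN1 by the read total.

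The miR-181 family, known for setting the sensitivity of the T cell receptor in later thymocytes, was lower in DN1 by the read total. Of 5 tested names 4 were lower, and 2 of these under every scaling. miR-181c and miR-181d, neighbours on chromosome 8, had the clearer difference. miR-181c had 4126 RPM in LMPP and 952 RPM in DN1, 4.33-fold lower (4.14 to 4.53), and miR-181d had 5927 and 1355 RPM, 4.37-fold lower (4.21 to 4.54). miR-181a, by far the most abundant of them, had 26774 and 13112 RPM, 2.04-fold lower (2.01 to 2.07), a difference that was 1.04-fold with TMM factors and that was not called with any other scaling. miR-181b had 7089 and 3525 RPM and did not pass the rule. The intervals of the pair on chromosome 8 lay wholly beyond those of miR-181a and miR-181b.

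The miR-17 family and its relatives, which are known for promoting lymphocyte survival and proliferation, differed by locus. The chromosome 14 cluster in Mir17hg had 5 of 8 tested names lower, with a sum of 136614 RPM in LMPP and 57967 RPM in DN1, a ratio of 0.424. Its most abundant name, miR-20a, had 98362 and 42857 RPM, 2.30-fold lower (2.28 to 2.31), and miR-17 had 25849 and 9174 RPM, 2.82-fold lower (2.77 to 2.86). The cluster on chromosome 5 within Mcm7, a gene of DNA replication, had 4 of 5 tested names lower. There miR-93 had 40621 RPM in LMPP and 15733 RPM in DN1, 2.58-fold lower (2.55 to 2.61), and miR-25 had 27849 and 9396 RPM, 2.96-fold lower (2.92 to 3.01). Among these names of both clusters only the minor arm miR-20a* was lower under every scaling: with TMM factors miR-20a, miR-17, miR-93 and miR-25 were 1.17-fold, 1.43-fold, 1.31-fold and 1.505-fold lower.

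The third cluster, on the X chromosome, did not go with them. miR-106a had 4177 RPM in LMPP and 4300 RPM in DN1, a ratio of 1.03 (0.995 to 1.07), and miR-20b had 3994 and 4553 RPM, a ratio of 1.14 (1.10 to 1.18). Both have the seed of miR-17, miR-20a and miR-93 and sequences that are nearly the same, so reads with an error or a shortened end could have been assigned between them, and their values are uncertain to that extent. The sum over the seed does not depend on how reads were divided among its names, and was 176196 RPM in LMPP and 78379 RPM in DN1, 2.25-fold lower (2.23 to 2.26) by the read total. miR-18b of the X cluster had 104 and 195 RPM, whereas miR-18a of the chromosome 14 cluster had 5665 and 3527 RPM, and neither passed the rule by the read total. With size factors the ratio of miR-18b was 3.34 and with TMM factors 3.71, and it was called higher under both. The summed X cluster had a DN1 to LMPP ratio of 0.920 by the read total, which a shift of 0.98 on the log2 scale turns to above 1. By the total 1 of 6 tested names was lower, and that name, miR-19b, has the same mature sequence from chromosome 14. miR-92a, counted in the sums of the chromosome 14 and X clusters, also comes from both loci. Nearly all of its reads are in the hairpin tables described below, which these sums leave out.

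Most of the listed names that are known from lymphocytes were higher in DN1. Of 9 listed and tested names 7 were higher (background 9.49%), all 7 under every scaling, 1 was lower by the read total and 1 did not pass. Their median log2 ratio was 1.84 against -0.75 for all tested names, and their sum was 37835 RPM in LMPP and 144793 RPM in DN1. As with the progenitor list, the members were chosen with earlier results known, and their count is no test of enrichment. miR-150, which represses the transcription factor Myb and marks mature lymphocytes, had 2549 RPM in LMPP and 46468 RPM in DN1, 18.2-fold higher (17.5 to 19.0). It had the largest ratio of all higher names. Its opposite arm, miR-150*, had 20.4 and 169 RPM, 8.29-fold higher (5.32 to 13.7). miR-342-3p, from chr12:108658620-108658718 in an intron of Evl, had 1585 RPM in LMPP and 8362 RPM in DN1, 5.28-fold higher (5.01 to 5.56), and its opposite arm miR-342-5p had 59.2 and 225 RPM.

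miR-146a, a feedback repressor of NF-kB signalling, had 1060 RPM in LMPP and 7079 RPM in DN1, 6.68-fold higher (6.28 to 7.11). miR-146b, from another chromosome and with the same seed, had 469 and 175 RPM, 2.68-fold lower (2.37 to 3.02) by the read total and 1.36-fold lower with TMM factors. miR-155, induced by activation in lymphocytes, had 5570 and 6966 RPM, a ratio of 1.25 that did not pass the rule by the read total. With size factors its ratio was 2.22 and with TMM factors 2.46, and it was called higher under both. The 3 miR-29 names, known to act on DNA methyltransferases and collagens, were all higher. miR-29b had 18121 RPM in LMPP and 54555 RPM in DN1, 3.01-fold higher (2.96 to 3.06), miR-29a had 8052 and 19641 RPM, 2.44-fold higher (2.38 to 2.50), and miR-29c had 370 and 1321 RPM, 3.57-fold higher (3.21 to 3.98). They come from 2 loci, miR-29a with 1 copy of miR-29b on chromosome 6 and miR-29c with the other copy on chromosome 1, and both pairs were higher.

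Both arms of miR-142, a miRNA of all blood lineages that is made from chr11:87756864-87756927 in Mir142hg, were higher in DN1. miR-142-5p had 9041 RPM in LMPP and 38955 RPM in DN1, 4.31-fold higher (4.22 to 4.402), and miR-142-3p had 1957 and 13636 RPM, 6.97-fold higher (6.66 to 7.30). miR-139-5p, from an intron of Pde2a at chr7:101475376-101475443, had 1630 and 6116 RPM, 3.75-fold higher (3.57 to 3.95). miR-22 had 4594 and 11560 RPM, 2.52-fold higher (2.44 to 2.59). miR-32, from an intron of Tmem245, had 456 and 1103 RPM, 2.42-fold higher (2.19 to 2.67), while miR-25 with the same seed was lower by the read total. The remaining higher names were miR-141 and miR-200c, given below with the epithelial names. The 15 higher names held 4.96% of the mature reads of LMPP and 20.97% of those of DN1, and the 60 lower names held 35.6% and 10.9%.

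**Figure D2:**
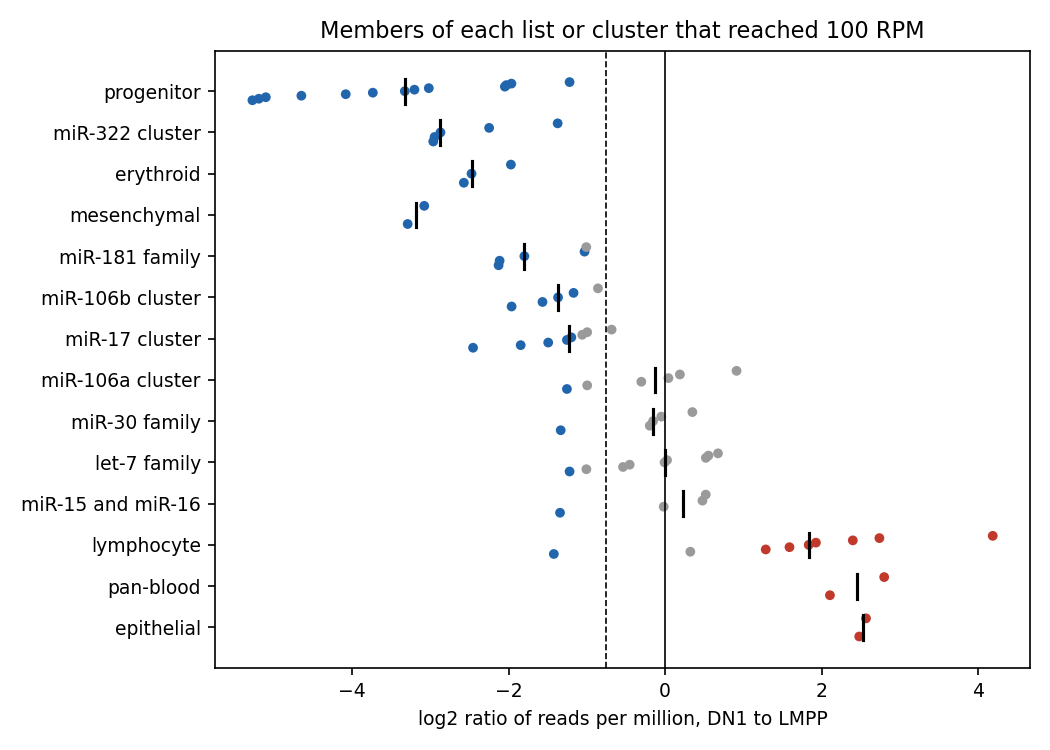
Each point is a tested name of a list or genomic cluster, by its log2 ratio of DN1 to LMPP by the read total, red where higher, blue where lower and grey where not past the rule; the bar is the list's median, the dashed line the median of all 158 tested names (-0.75) and the solid line equal levels. The progenitor median is -3.33 and the lymphocyte median 1.84; TMM factors would move every point right by 0.98, which carries the medians of the miR-106a cluster, the miR-30 and let-7 families and all tested names above 0.

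Several of the most abundant names had close levels in the libraries. By the read total 40 tested names had an interval that lay wholly within 1.5-fold. miR-24 had 40849 RPM in LMPP and 34137 RPM in DN1, let-7a had 35226 and 35830 RPM, and let-7i had 32529 and 32373 RPM. The let-7 family, which is known to repress progenitor and growth genes, summed to 183003 RPM in LMPP and 192173 RPM in DN1, a ratio of 1.05, with 1 of 9 names lower and 8 not past the rule. With TMM factors 3 of its names were called higher, and let-7a and let-7i had ratios of 2.00 and 1.96, so their evenness holds for the read total only. miR-21, the most abundant name of DN1, had 87652 RPM in LMPP and 159118 RPM in DN1, 1.82-fold higher (1.80 to 1.83), which is short of the rule by the total and past it under the other scalings. The 8 most abundant names of each library held 44.5% of the mature reads of LMPP and 53.8% of those of DN1.

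Grouped by seed, 29 families had at least 2 names, and by the read total 3 of the sums were higher (10.3%) and 12 lower (41.4%). Only names matched to RefSeq were given a seed, so a sum may leave out members. miR-30b and miR-30d, at 3167 and 4444 RPM in LMPP, and miR-301b were left out in this way. The largest differences downward were the seed of miR-196 (AGGUAGU), at 21866 RPM in LMPP and 637 RPM in DN1, and the seed of miR-99 and miR-100 (ACCCGUA), at 4528 and 230 RPM. The seed of miR-125 and miR-351 (CCCUGAG) had 8221 and 1007 RPM, and all 3 of its names were lower. The seed of miR-29 (AGCACCA) had 26544 and 75517 RPM, and all 3 of its names were higher. In 2 families names were called in both directions. For GAGAACU the sum followed miR-146a, at 1529 RPM in LMPP and 7254 RPM in DN1, and for AUUGCAC it followed miR-25, at 29575 and 11118 RPM. AUUGCAC is also the seed of miR-92a, nearly all of whose reads are in the hairpin tables described below. The seed sums leave those tables out. In the seed AGUGCAA the names lay far apart, with miR-130a at a ratio of 0.0398 and miR-301a at 0.995.

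Markers of other cell types were read alongside, since the tables hold no messenger RNA and no miRNA defines LMPP or DN1. miR-223, the myeloid marker, had 10296 RPM in LMPP and 17609 RPM in DN1, and was not past the rule by the total. It was called higher with size factors (3.03-fold) and with TMM factors (3.37-fold). Its level in DN1 was the highest of the 8 libraries that begin at base 3, against 869 RPM in DN2. Of the B lineage list miR-139-5p was higher in DN1, and miR-34a had 483 and 423 RPM. In the pro-B library (ProB) the levels were 51029 RPM for miR-139-5p and 2879 RPM for miR-34a. The values of miR-223 and miR-139-5p were higher in DN1 as those of most lymphocyte names were, that of miR-34a was not, and their part in the result was not tested.

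The erythroid names miR-451, miR-486 and miR-144 were all lower in DN1 by the total, with a sum of 4655 RPM in LMPP and 835 RPM in DN1. miR-451 had 3464 and 623 RPM, 5.56-fold lower (5.27 to 5.86). It and miR-486 were lower under every scaling. The liver miRNA miR-122 had 4313 RPM in LMPP and 5.86 RPM in DN1, 736-fold lower (485 to 1176), the largest ratio among tested names. It had 1163 RPM in LSK, the wider lineage-negative Sca+ cKit+ fraction, 1234 RPM in MPP, its CD106+ part, and 28.6 RPM in ProB. miR-375, known from endocrine cells, had 166 and 1.33 RPM, with 0 to 1.68 RPM in the other 6 libraries. The mesenchymal list (5 names, 2 tested, both lower) summed to 600 and 63.4 RPM, and the muscle list (4 names, none at the level) to 112 and 2.00 RPM. The muscle miRNA miR-1 had 62.8 RPM in LMPP, 2.80 RPM in LSK and 4.73 RPM in MPP. miR-145 had 1 read in LMPP and none in DN1, and the neural marker miR-124 had none in either library. The epithelial list (7 names, 2 tested, both higher) was mixed, with a sum of 415 RPM in LMPP and 788 RPM in DN1. miR-141 had 49.0 and 291 RPM, 5.93-fold higher (4.44 to 8.09), and miR-200c, from the same cluster on chromosome 6, had 45.4 and 254 RPM, 5.59-fold higher (4.14 to 7.72), while miR-200a had 65.4 and 94.2 RPM. The other 4 names, all below the level, had less in DN1 by the read total. miR-205 had 25.5 and 7.19 RPM, and miR-203 had 69.4 and 14.9 RPM. miR-200b had 65.9 and 53.5 RPM, and miR-429 had 94.0 and 74.0 RPM. The intervals of these last names included a ratio of 1, at 0.813 (0.611 to 1.093) for miR-200b and 0.788 (0.620 to 1.009) for miR-429. The liver, erythroid, mesenchymal and muscle markers were thus high on the LMPP side together with the progenitor names, and their part in that result was not tested.

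The miR-183 cluster, whose miR-182 is known from activated T cells, stayed below the level in both libraries. Its 3 names summed to 7.15 RPM in LMPP and 143 RPM in DN1, 20.01-fold higher (9.64 to 50.01). miR-182 had 4.08 RPM in LMPP and 88.4 RPM in DN1, beside 339 RPM in CD4SP and 504 RPM in CD8SP, the mature single-positive thymocytes.

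The 6 other libraries whose reads begin at base 3 show where LMPP and DN1 stand. In LSK and MPP miR-196b had 13938 and 22326 RPM, close to the 21851 RPM of LMPP. The pro-B library had 685 RPM, DN1 635 RPM, DN2 223 RPM, CD4SP 1.33 RPM and CD8SP 12.8 RPM. The 3 progenitor libraries were high and all others low, ProB included. miR-10a, at 21754 RPM in LSK, 13071 in MPP and 8809 in LMPP, was already lower at each marrow stage, and had 1068 RPM in ProB, 878 RPM in DN1 and 117 RPM in DN2. For miR-150 the 4 marrow libraries lay between 1277 RPM (LSK) and 2549 RPM (LMPP). The thymic libraries had 46468 RPM (DN1), 3099 RPM (DN2), 23293 RPM (CD4SP) and 50003 RPM (CD8SP). DN1 thus stood with the mature T cells and DN2 with the marrow libraries. The same order held for miR-342-3p, with 1585 RPM in LMPP, 8362 in DN1, 739 in DN2 and 11835 in CD8SP.

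miR-146a, miR-29b and miR-29a were highest in DN1 of the 8 libraries. miR-146a had 7079 RPM there, 433 RPM in DN2 and at most 2248 RPM elsewhere. miR-29b had 54555 RPM in DN1, 20454 in DN2 and at most 21946 elsewhere. Unlike miR-150 and miR-342-3p, these names were not high in the single-positive libraries. In CD4SP and CD8SP miR-29b had 8894 and 13247 RPM, miR-29a had 4074 and 3976 RPM, and miR-146a had 1512 and 853 RPM. miR-20a had 98362 RPM in LMPP, 42857 in DN1 and 114370 in DN2, and miR-181d had 5927, 1355 and 4813 RPM, so that DN1 lay below both of its neighbours. The progenitor names differed in where DN2 lay: miR-126-3p had 1632 RPM in DN1 and 1333 RPM in DN2 and miR-130a 94.4 and 83.4 RPM. By contrast miR-125a-5p had 675 RPM in DN1 and 144 RPM in DN2, and miR-221 went the other way, at 1715 and 2581 RPM. Ratios of DN1 to LMPP and to DN2 share the DN1 library, so they are not separate evidence.

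**Figure D3:**
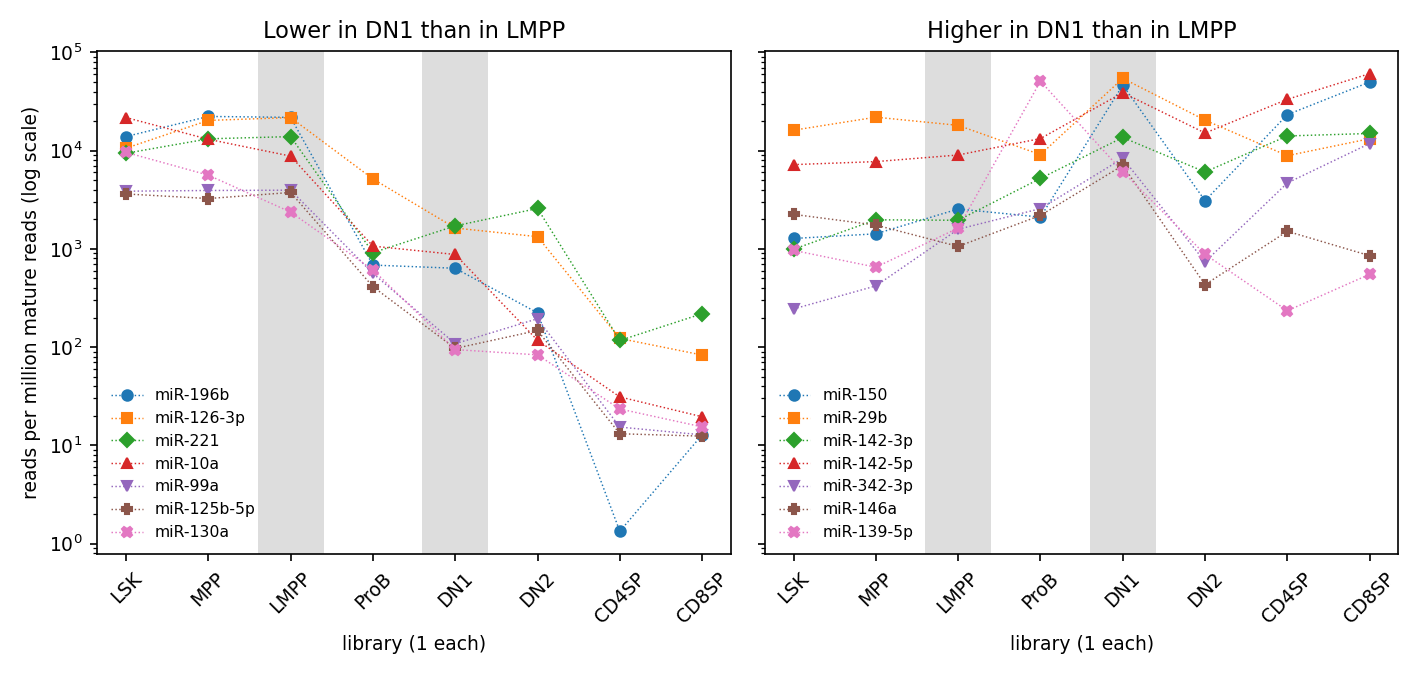
Levels in RPM (log scale) of 7 names lower and 7 names higher in DN1, in the 8 libraries that begin at base 3, 1 point per library, with LMPP and DN1 shaded; dotted lines only link points of 1 name, and the order of the libraries is not a lineage, since ProB is a side branch. Each of the 7 lower names has a lower level in DN1 than in LSK, MPP and LMPP, and miR-150 and miR-342-3p are high in DN1 and CD8SP and low in DN2.

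The arms of a hairpin can be compared without any scaling between libraries, as the share of 1 arm among the reads of both. Of 26 hairpins with both arms measured, the second arm had a lower share in DN1 in 17, a higher share in 3 and overlapping intervals in 6. miR-21* made up 0.907% of the reads of its hairpin in LMPP (0.845% to 0.973%) and 0.175% in DN1 (0.165% to 0.186%). Its RPM was 803 in LMPP and 279 in DN1, 2.87-fold lower by the read total, although miR-21 itself had the higher level in DN1. With TMM factors miR-21* was 1.46-fold lower and with size factors 1.62-fold lower, and neither was called. miR-27a* made up 7.98% in LMPP and 1.92% in DN1, and miR-27b*, from a hairpin on another chromosome, 3.86% and 0.855%. miR-191* went from 1.43% to 0.594% and miR-20a* from 0.699% to 0.294%. The exceptions were miR-140*, miR-345-5p and miR-142-3p, and the last went from 17.8% to 25.9% of the reads of both arms.

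Both arms moved alike where both were called: by the read total 7 hairpins had both arms lower, 3 had both higher and none had opposite calls. All 3 higher pairs were called under every scaling, but of the lower pairs only those of miR-126 and miR-322 were. Of the 17 hairpins with a lower share, 12 could also be placed with the hairpin tables added, and the share was lower in DN1 in all 12. These shares still hold the mature reads, so they are not independent of the first ones. For miR-140* the direction reversed when those tables were added. Other libraries put the shares in a wider range. The share of miR-21* was 0.944% in LSK, 1.08% in MPP, 0.694% in ProB, 0.304% in DN2, 0.0835% in CD4SP and 0.232% in CD8SP, so that the 4 marrow libraries were above the 4 thymic ones. That of miR-27a* was 4.53% in DN2 and 3.34% in ProB, so for this hairpin the marrow and thymus libraries overlapped. By level, 11 of 20 star names tested were lower in DN1 (55%, against 35.5% of the other 138 names), but only 2 of the 11 were lower under every scaling.

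**Figure D4:**
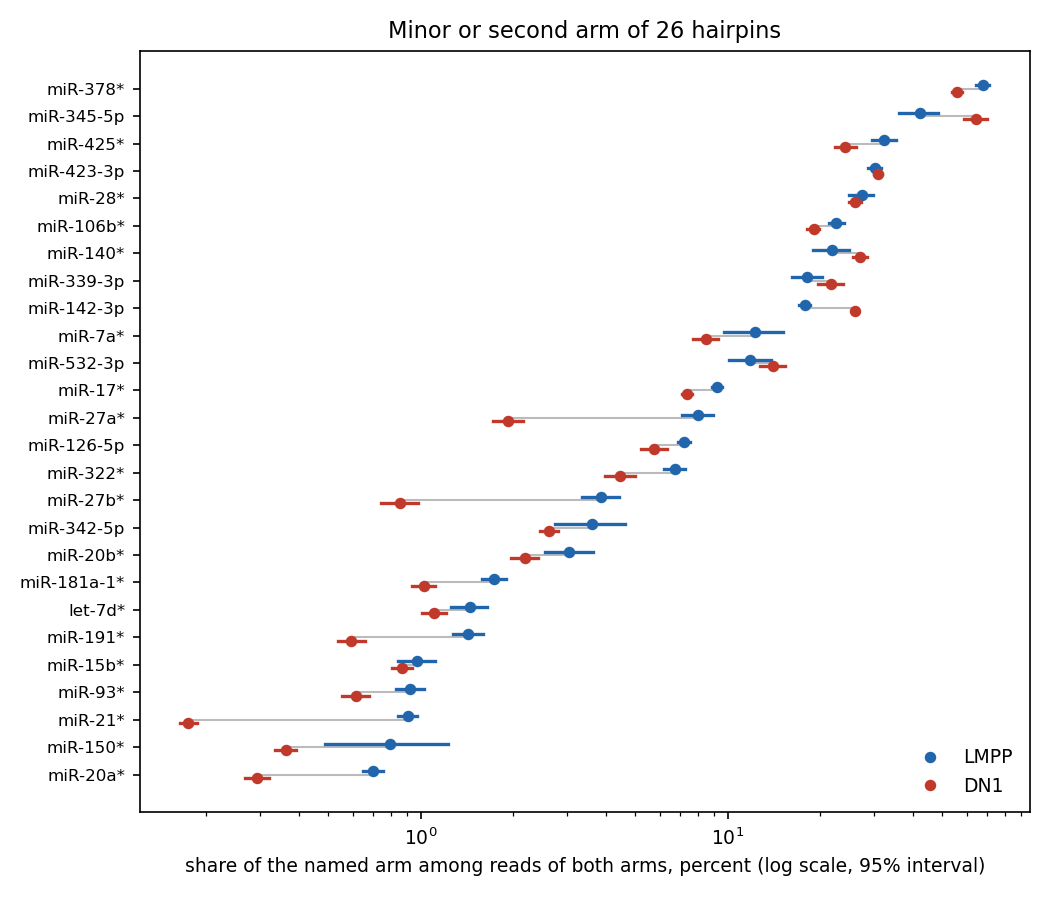
For 26 hairpins the share of the named arm among the reads of both arms, in percent on a log scale, in LMPP (blue) and DN1 (red) with exact 95% binomial intervals that cover counting error only. The share is lower in DN1 in 17 hairpins, most clearly for miR-21*, miR-27a* and miR-27b*, and higher for miR-140*, miR-345-5p and miR-142-3p.

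The ends of the reads were compared next, since a shift of the 5′ end changes the seed. For most names nearly all reads began at base 3 in both libraries. miR-142-5p was different, with 70.1% of its reads starting at base 1 in LMPP and 53.5% in DN1. The share was 79.5% in LSK, 74.0% in MPP, 57.0% in ProB, 59.8% in DN2, 60.7% in CD4SP and 52.2% in CD8SP, so that the 3 progenitor libraries were the highest of 8. miR-126-3p began at base 4 in 31.6% of reads in LMPP and 30.8% in DN1, close shares at very different levels. At the 3′ end, 78.0% of reads in LMPP and 82.1% in DN1 matched the genomic hairpin throughout, 8.18% and 6.398% ended in an added U, and 6.88% and 5.33% ended in an added A. For miR-15a, miR-181c, miR-351 and miR-99b each of these shares was 0% in both libraries. Only the mature span is listed for these names, so the matched shares over all reads may be too low. Single names differed in direction: of the reads of miR-142-3p, 22.2% in LMPP and 11.9% in DN1 had an added U, while for miR-27a the shares were 30.6% and 38.6% and for miR-146a 32.5% and 38.4%.

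The hairpin tables, which hold further reads assigned to precursors, were added by miRNA number as a check, with both arms together. They held 178102 reads in LMPP (15.4% of both tables) and 375697 in DN1 (9.10%). With them 160 numbers were tested, 12 were higher (7.5%) and 63 lower (39.4%). All calls with both tables added were made by the read total only. Of 134 numbers tested both ways 127 had the same call and none the opposite. The mature reads enter both ways, so this agreement is in part built in and is no independent check. The largest gain was for miR-92a of the chromosome 14 and X clusters, nearly all of whose reads were in the hairpin tables: it had 1193 RPM in LMPP and 598 RPM in DN1 by the mature tables, but 44997 and 17916 RPM with both, 2.51-fold lower (2.48 to 2.54) by the read total. miR-128 was also lower with both tables by the read total, at 6271 and 2716 RPM. By the mature tables alone it was not called, and its ratio with TMM factors was 1.06. miR-196a, the relative of miR-196b, had 147 and 4.96 RPM with both tables. let-7e, miR-146b, miR-181a and miR-497 were no longer past the rule. Nor was miR-872, whose arms added from the mature tables were lower, at 237 and 91.4 RPM, though neither arm was called by name.

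A group of high-numbered names, miR-2132 to miR-2146 with miR-2182 and miR-689, was high in LMPP. Of its 15 numbers 14 were tested with both tables and all 14 were lower in DN1, with sums of 35118 RPM in LMPP and 1098 RPM in DN1, 32.0-fold lower. miR-2142 alone had 27109 and 169 RPM. Of the reads of miR-2142, 86.4% in LMPP and 76.2% in DN1 began with 18 bases that are found in annotated ribosomal RNA. By the mature tables the group was small, at 2158 RPM and 117 RPM. Without it 147 numbers were tested with both tables, 12 were higher and 49 lower; this setting was chosen after seeing the data. Whether these reads come from miRNAs was not tested.

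**Figure D5:**
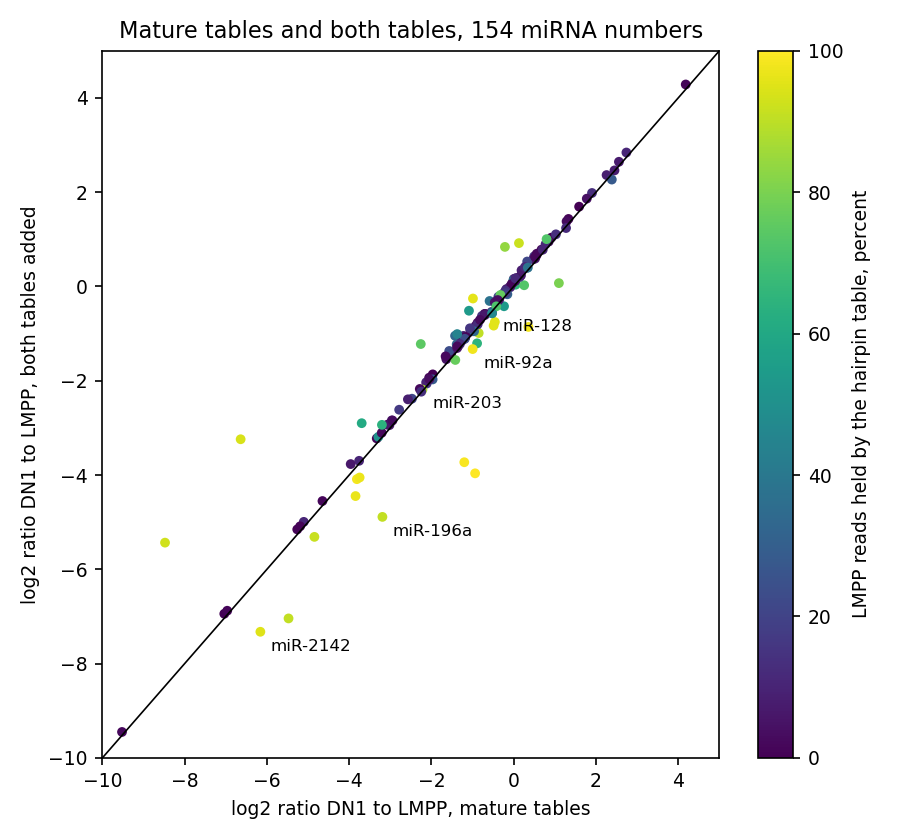
Each point is 1 of 154 miRNA numbers with reads in both libraries, by the log2 ratio of DN1 to LMPP from the mature tables (x axis) and from mature and hairpin tables added (y axis); the colour gives the percentage of its LMPP reads that the hairpin table holds, and the line marks equal ratios. Numbers held mostly by the mature tables lie on the line, and those held mostly by the hairpin tables, such as miR-196a and miR-2142, may lie off it.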

How the data were processed

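Small RNA of sorted C57BL/6 cells was sequenced, and per the labels' protocols a gel fraction was used and only RNA with 5′ phosphate and 3′ hydroxyl ends took up adaptors. The authors deposited, per the file headers, a raw read count for each distinct sequence with its miRNA name, length and position, in a mature and a hairpin table per library. Neither aligner and trimming nor mismatch limit and miRNA release is stated; these are not given in the sources here. In CD8SP the names showed the tables to be of the opposite kind, and they were taken by those names.

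Counts were summed per name, shared sequences were divided evenly between their names, and values were divided by the mature total (RPM). Ratios have exact 95% conditional binomial (Clopper-Pearson) intervals, and shares exact binomial ones. A name was called where the interval lay beyond 2-fold and the higher level was no less than 100 RPM and 10 reads. The total of mature reads and the floor of 3 counts are given with the results. The rule was tested on simulated data.

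Named miRNAs were the 12 largest ratios each way among called names with at least 1000 RPM and 30 reads, the 8 most abundant of each library, up to 4 per list by mean RPM, and the 5 most abundant within 1.5-fold. Named outside this rule, after their values were seen, were miR-10b, miR-18b, miR-20a*, miR-21*, miR-124, miR-128, miR-140*, miR-145, miR-150*, miR-196a, miR-199b, miR-200b, miR-203, miR-205, miR-301a, miR-342-5p, miR-345-5p, miR-375, miR-450b-3p, miR-872 and the miR-2132 group. The libraries, lists and members were chosen with earlier results of these data known. Sequences and positions are from RefSeq (GRCm38.p6) and hosts from GENCODE M21.

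Alternatives were TMM factors (edgeR 4.0.16), size factors (DESeq2 1.42.0), a total without the most abundant names (miR-16, miR-20a, miR-21 and miR-29b), other treatments of shared, single and imperfect sequences, both tables added, thinning, and other thresholds. Python 3.11.15 with numpy 2.4.6, pandas 2.3.3 and scipy 1.17.1, matplotlib 3.10.9 and R 4.3.3 were used.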

Additional observations from a re-analysis of the deposited data

How the results depend on the processing

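The count of names higher in DN1, 15 by the read total, was 35 with size factors, 41 with TMM factors, 8 under a rule of 4-fold and 25 with no RPM minimum. The count of lower names, 60, was 29 with size factors, 26 with TMM factors, 29 under a rule of 4-fold, 110 with no RPM minimum and 29 with a minimum of 1000 RPM. The shifts in scaling act on every ratio alike, and which scaling is right was not tested. Both counts stayed within 1.5 times under the other settings, from 11 to 22 higher and from 49 to 78 lower. For 102 named miRNAs under 14 settings, 1 of them added after seeing the data, 1230 calls were the same, 99 were lost and 65 were gained. In 4 cases the ratio of a name called by the read total crossed 1, and 30 had no value. A name called in neither setting counts as the same even where its ratio crossed 1. That of miR-24 was 0.836 by the read total and 1.65 with TMM factors. The 4 are miR-27a* (ratio 1.44 with both tables, 1.39 without the miR-2132 group) and miR-27b* (1.33 and 1.29), because adding the tables joins their arms to miR-27a and miR-27b. No paired analysis was possible because each population has 1 library. Depth limits low names: 3 reads are 3.06 RPM in LMPP and 0.799 RPM in DN1.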
